A study of Homo sapiens with 14 samples.

Results

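The genes described here are 10 components of the machinery that carries a cell from G1 into S phase: the D-type cyclins CCND1, CCND2 and CCND3, the E-type cyclin CCNE1, the kinase CDK6, the inhibitors CDKN2A, CDKN2C, CDKN1B and CDKN1C, and the retinoblastoma gene RB1. They were chosen by name from the 20049 gene symbols of the table, with earlier results of these data known, and each of the 10 was found. Total RNA was sequenced from 14 established human neuroblastoma cell lines, with 1 library per line, all in one group with no treatment, in a series on telomere damage and immune recognition. The lines were SH-SY5Y, SK-N-SH, IMR5-75, IMR32, SK-N-FI, SK-N-DZ, SK-N-BE(2)C, SK-N-AS, NGP, NBL-S, LS, Lan-6, GI-ME-N and CLB-GA, grown in RPMI1640 or DMEM with serum. SH-SY5Y is a subclone of SK-N-SH and IMR5-75 a subclone of IMR32, which is general knowledge of these lines and not stated in the labels. A cell line is a single culture of a single tumour, and the labels give no MYCN copy number, karyotype or mutation.

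In G1, D-type cyclins activate CDK4 and CDK6, and these kinases begin the phosphorylation of the RB1 protein, which otherwise holds E2F transcription factors silent. Cyclin E with CDK2 completes that step. INK4 inhibitors (CDKN2A, CDKN2B, CDKN2C and CDKN2D) bind CDK4 and CDK6 and keep D cyclins from them, whereas CIP/KIP inhibitors (CDKN1A, CDKN1B and CDKN1C) bind cyclin and kinase complexes and chiefly hold back CDK2. In neuroblastoma, a tumour of the sympathetic nervous system, high cyclin D1 and gains of CDK4 or CCND1 in some tumours are well known.

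Levels are CPM, the count of a gene relative to a library total of fixed size, scaled with TMM factors (a correction for differing RNA composition). Lan-6 had the smallest library (35856642 counts) and LS the largest (58644013). The limit set by a count of 0 was taken as 3 counts, or 0.0514 CPM for LS and 0.102 CPM for Lan-6. With no replicates, intervals cover counting error only, and no difference between lines could be checked against replicate error. Markers of the adrenergic neuroblast (PHOX2A, HAND2, GATA2, GATA3, ISL1, DBH and TH) were present at 1 CPM or more for 5 to 7 of 7 genes in each line, and had their lowest sums in SK-N-SH (316.0 CPM, TH with 0 counts) and GI-ME-N (462.6 CPM). Mesenchymal markers (VIM, FN1, PRRX1, YAP1, SNAI2 and CD44) summed to 29340 CPM (GI-ME-N), 12410 CPM (SK-N-SH) and 1929 CPM or less elsewhere. In Lan-6, long and AT-rich transcripts were underrepresented more than in any other library. The rank correlation of its log2 deviation was -0.47 with length and 0.65 with GC content over 10785 genes. For this reason levels in Lan-6 are also given with a GC and length trend removed where that matters. Weaker trends of the same direction were found in GI-ME-N (-0.347 with length and 0.215 with GC content) and SK-N-SH (-0.135 and 0.0786).

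Cyclin D1, CDK6 and RB1 were found at substantial levels in all 14 lines, cyclin D2 below 1 CPM in each, and CDKN2A and CDKN1C ran from almost nothing to 95.5 and 41.4 CPM. The median over the lines was 617.4 CPM for CCND1, 76.8 CPM for RB1, 14.5 CPM for CCNE1 and 25.01 CPM for CCND3. CDKN2A spanned 9.71 log2 units from the lowest to the highest line and CDKN1C 7.64, against a median span of 2.45 for all 11298 genes whose mean exceeded 5 CPM. CCNE1 (2.18), CDK6 (2.58), CCND3 (2.72) and CDKN1B (2.76) spanned about as much as that median gene.

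**Figure D1:**
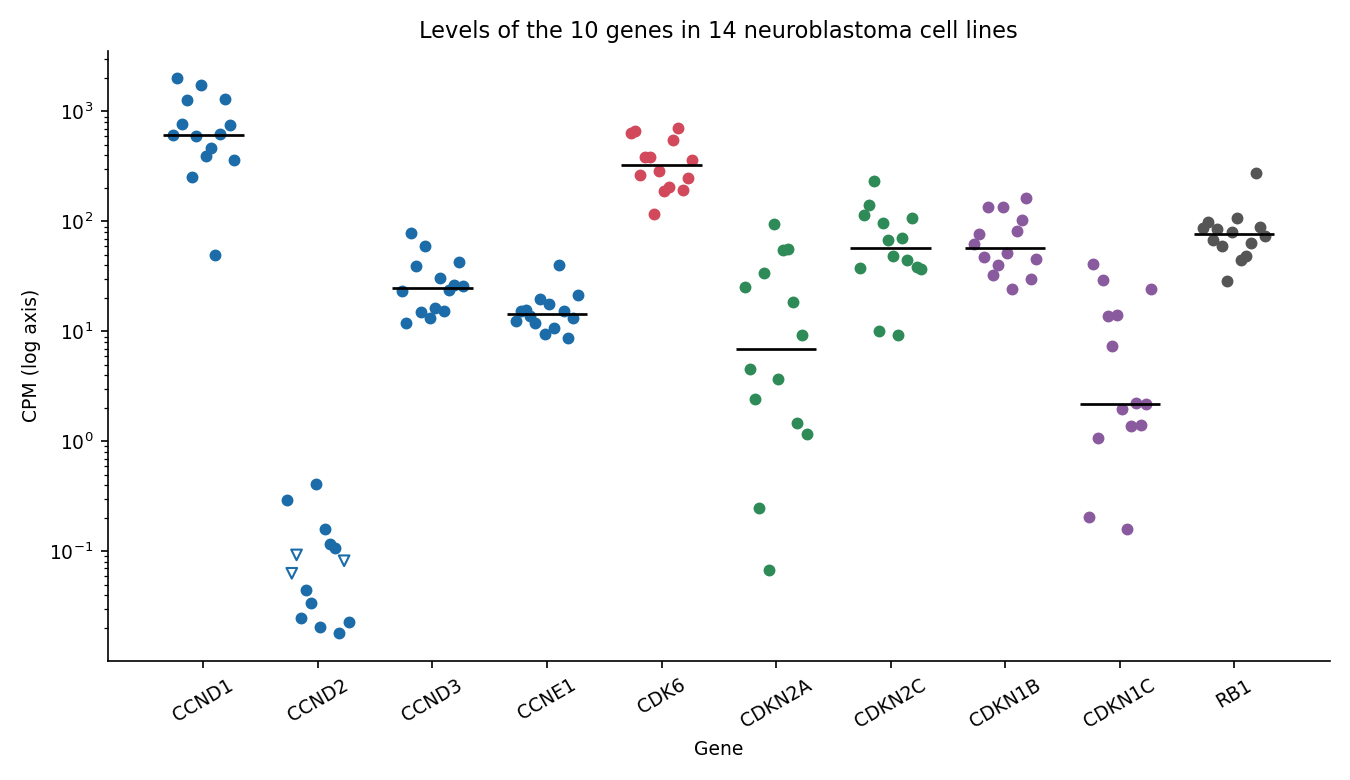
Level of each of the 10 genes in the 14 lines, in CPM on a log axis. Each point is a line, black bars are medians (none is drawn for CCND2), and open triangles are lines with a count of 0, drawn at the 3-count limit. CDKN2A and CDKN1C spread over several orders of magnitude, and CCND2 lies below 1 CPM in every line.

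Cyclin D1 made up most of the D cyclin transcripts, from 76.3% of their summed CPM in SK-N-AS to 99.4% in CLB-GA. CCND1 (ENSG00000110092.3, chromosome 11, 69641087 to 69654474, plus strand, GRCh38) reached 1995 CPM in CLB-GA, 1757 in LS, 1309 in SK-N-FI and 1272 in IMR32. A middle group held GI-ME-N (761.9 CPM), SK-N-SH (759.4), SK-N-DZ (623.1), SK-N-BE(2)C (611.6), Lan-6 (594.2), NGP (466.8), NBL-S (396.7) and SH-SY5Y (362.3). IMR5-75 followed with 252.7 CPM and SK-N-AS came last with 49.8 CPM (95% exact Poisson interval 47.7 to 52.0), 5.07 times below IMR5-75. Counting intervals of neighbours in this order overlapped in 2 of 13 pairs, GI-ME-N with SK-N-SH and SK-N-DZ with SK-N-BE(2)C.

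SK-N-AS was the single case among the 10 genes in which a line lay at least 4 times above the next highest line or 4 times below the next lowest. Of 15376 genes averaging 1 CPM or more, 4.18% had such a highest line and 5.25% such a lowest line, and 1 of 10 members is a share too small to set against these. The leukocyte markers PTPRC, CD3E and CD14 summed to 469.8 CPM in SK-N-AS, of which PTPRC was 469.6 CPM, while no other line exceeded 3.82 CPM. CD3E had 0 counts in SK-N-AS, and the part of that signal in the CCND1 level was not tested.

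CCND3 (ENSG00000112576.12, chromosome 6), a D cyclin needed by lymphocyte precursors, had its highest levels in GI-ME-N (79.4 CPM) and Lan-6 (59.9 CPM). SK-N-SH (42.7) and IMR32 (39.7) followed, and it was between 23.5 and 30.7 in NGP, SK-N-FI, SH-SY5Y, SK-N-DZ and SK-N-BE(2)C and lower in NBL-S (16.5), SK-N-AS (15.3), IMR5-75 (15.0), LS (13.3) and CLB-GA (11.97). CLB-GA and LS, highest in CCND1, stood at the low end of CCND3, where the counting intervals of neighbouring lines from NBL-S to CLB-GA overlapped. With the GC and length trend removed, SK-N-AS (-0.83 log2 units from the median) lay below LS (-0.65). Over the 12 lines that are not subclones of another line of the series CCND1 and CCND3 had r = 0.07 (a description with no test). With the GC and length trend removed, Lan-6 came to 28.2 CPM, close to the middle of the order, and GI-ME-N was still highest at 61.4 CPM. Per kilobase of longest transcript, the CCND1 level was 11.6 times the CCND3 level at the median, from 1.81 times in SK-N-AS to 92.6 times in CLB-GA, and above it in 14 of 14 lines.

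CCND2 (ENSG00000118971.7, chromosome 12) had at most 24 counts, in LS, which is 0.411 CPM. SK-N-BE(2)C had 13 counts, NGP 6, SK-N-AS and SK-N-DZ 5 each, the others 2 or fewer, and CLB-GA, GI-ME-N and SK-N-SH had 0. CCND2 did not pass the filter on low counts and enters no main test below except the planned relation with CCND1. Some alternative fits, such as those with no filter, included CCND2 and did not call it. Its count is uncertain, because an annotated protein-coding gene, AC008012.1, spans the whole of CCND2 on the same strand and had 103 counts (SK-N-SH) to 464 (SK-N-FI), and reads of shared exons could be assigned to either.

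CDK6 (ENSG00000105810.9, chromosome 7, 92604921 to 92836594, minus strand), a catalytic partner of the D cyclins, was at 706.4 CPM in SK-N-DZ, 659.7 in CLB-GA, 631.2 in SK-N-BE(2)C and 552.5 in SK-N-AS. Next came 384.7 CPM in IMR5-75 and 382.1 in IMR32, a pair whose counting intervals overlapped, then 360.0 in SH-SY5Y, 290.3 in LS, 264.6 in GI-ME-N and 249.9 in SK-N-SH. The lowest levels were 206.7 CPM in NGP, 192.4 in SK-N-FI, 188.5 in NBL-S and 118.0 in Lan-6. The low end depends on the GC and length trend: with it removed Lan-6 had 267.6 CPM and NGP, at 164.0, was lowest.

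CDK4, the other partner kinase, was measured beside it. Per kilobase of longest transcript, CDK6 stayed below CDK4 in 14 of 14 lines, from 0.023 of the CDK4 level in NGP to 0.629 in IMR5-75. NGP and LS, with the highest CDK4 at 1608 and 1206 CPM, had 206.7 and 290.3 CPM of CDK6, while CDK4 ran from 109.3 to 517.5 CPM in the other lines.

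CCNE1 (ENSG00000105173.13, chromosome 19), the cyclin of the last step before S phase, had the smallest span of the 10 genes on the TMM scale (2.18 log2 units), though CDK6 spanned less with the GC and length trend removed (1.80 against 2.22) and CCND2 less on the deposited log2 values (0.942 against 1.94). It was highest in SK-N-AS, the line lowest in CCND1, with 40.2 CPM, followed by SH-SY5Y (21.4), Lan-6 (19.7) and NBL-S (17.9). The remaining lines lay between 8.81 CPM (SK-N-FI) and 15.6 CPM (GI-ME-N). Apart from SK-N-AS, the order of neighbouring lines is not resolved by counting, since intervals overlapped in 12 of 13 neighbouring pairs. Lines farther apart in the order could be separated, such as SH-SY5Y (interval 20.08 to 22.85) and SK-N-FI (8.05 to 9.63). Across the 12 lines CCND1 and CCNE1 had r = -0.81 and rho = -0.54, a pair picked after its values were seen and given with no test. Without SK-N-AS r was -0.42, and without the 2 lines farthest from the CCND1 median, SK-N-AS and CLB-GA, it was -0.61.

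**Figure D2:**
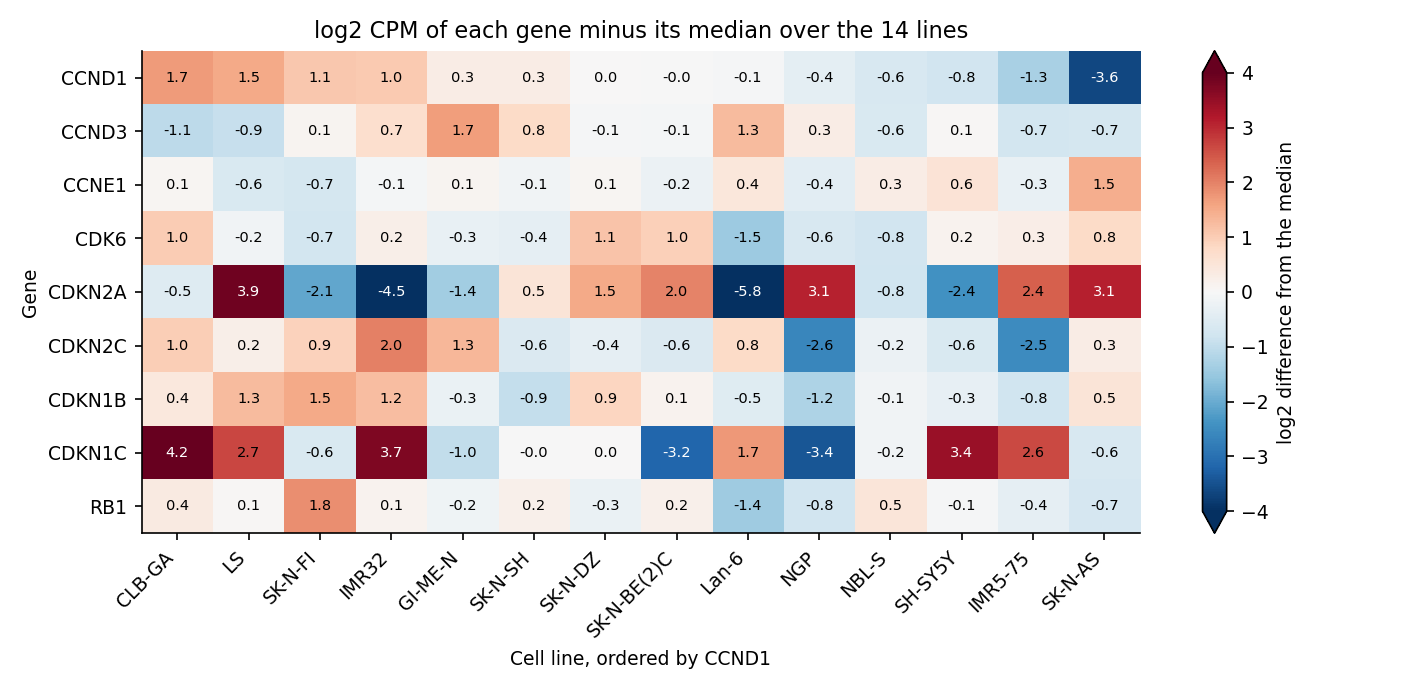
log2 CPM of 9 genes minus each gene's median over the 14 lines, in lines ordered from high to low CCND1, with the value printed in each cell and colours limited to 4 log2 units. SK-N-AS, at the right, combines the lowest CCND1 with the highest CCNE1, and CDKN2A and CDKN1C hold the strongest colours.

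CDKN2A (ENSG00000147889.17, chromosome 9, 21967753 to 21995301, minus strand) encodes unrelated proteins from separate first exons read in different frames: the INK4 inhibitor of CDK4 and CDK6, and ARF, which restrains MDM2. RefSeq's table of start windows for GRCh38.p14 holds a start for each, at 21995324 and at 21974857, which are 20467 bases apart. The 60 bases before the upstream start are shown because a count per gene adds transcripts of both starts, so that the values below cannot be assigned to either protein.

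CDKN2A, upstream start, minus strand, chr9:21995325-21995384: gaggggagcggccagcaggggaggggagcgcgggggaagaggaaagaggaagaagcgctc

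The stretch is 70.0% G and C. CDKN2A was highest in LS (95.5 CPM), SK-N-AS (56.3), NGP (54.9), IMR5-75 (33.9), SK-N-BE(2)C (25.5) and SK-N-DZ (18.6). SK-N-SH had 9.22 CPM, CLB-GA 4.52, NBL-S 3.71, GI-ME-N 2.45, SH-SY5Y 1.17 CPM, and SK-N-FI, with 82 counts, lay between GI-ME-N and SH-SY5Y. IMR32 had 10 counts, or 0.25 CPM (interval 0.12 to 0.459), and Lan-6 had 2 counts, or 0.068 CPM (interval 0.00821 to 0.245). Thus 12 of 14 lines had at least 1 CPM, and the SD of its log2 level was larger than that of 97.8% of the 11298 genes. On the opposite strand CDKN2A is overlapped by CDKN2B-AS1 over 524 bases and by AL359922.1 over its whole span (0 to 75 counts per line). Whether the counting used strand is not stated, so reads of such pairs may not be told apart. MDM2, the target of ARF, was at 4090 CPM in LS and 921.9 CPM in NGP, lines high in CDKN2A, and at 71.2 to 318.0 CPM in the other 12. SK-N-AS and IMR5-75, also high in CDKN2A, had 88.6 and 111.7 CPM of MDM2. LS and NGP were also the lines highest in CDK4 (1206 and 1608 CPM), and a link of MDM2 with either gene was not tested.

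CDKN2C (ENSG00000123080.10, chromosome 1, 50960745 to 50974633, plus strand), an INK4 inhibitor whose loss promotes medulloblastoma in mice, was highest in IMR32 (232.4 CPM), GI-ME-N (142.0), CLB-GA (114.0), SK-N-FI (108.0) and Lan-6 (96.1). The middle of the order was SK-N-AS at 70.7, LS at 67.4, NBL-S at 48.4, SK-N-DZ at 44.2, SK-N-SH at 38.3, SK-N-BE(2)C at 37.9 and SH-SY5Y at 37.2 CPM. IMR5-75 and NGP, at 10.0 and 9.25 CPM, formed a separate low pair with overlapping intervals. Of the 5 lines highest in CDKN2C, none had more than 4.52 CPM of CDKN2A, and over the 12 lines the INK4 pair had r = -0.64 and rho = -0.62 (no test, chosen after the values were seen). Without Lan-6 and IMR32 r was -0.55, and with the GC and length trend removed it was -0.504. The set of 5 depends on that trend. With it removed Lan-6 had 66.2 CPM of CDKN2C, below LS (76.8) and SK-N-AS (73.4), which had 132.0 and 53.3 CPM of CDKN2A on that scale. NGP, with 72.8 CPM of CDKN2A on it, had 10.65 CPM of CDKN2C.

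Of the 13 RefSeq start windows held for 7 of the 10 genes (CCND3, CCNE1, CDK6, CDKN2A, CDKN2C, CDKN1B and RB1; 250 bases before to 50 after a start), both strands were searched for the E2F letters TTTCCCGC, TTTGGCGC and TTTCGCGC and the E-box CACGTG, the letters bound by MYC and MYCN with MAX. The RB1 window belongs to a start inside the gene, at 48476450. No window held the E2F letters, which occur in 2.74% of 35116 windows of the same length. The E-box was found in 2 of the 3 CDKN2C windows, in 1 of the 2 CDK6 windows (30 bases after the start) and in no other window of these genes. It occurs in 7.26% of the 35116, and 13 windows are too few to set against that share. The letters CCAAT were searched as well. They were found in windows of CCND3, CDKN2C and CDKN1B and occur in 34.6% of the 35116. The stretch around the match before the most upstream CDKN2C start is printed because MYCN is tested below, with the match in capitals.

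CDKN2C, plus strand, chr1:50960498-50960557: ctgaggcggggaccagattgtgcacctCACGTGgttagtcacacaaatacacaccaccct

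A match describes the letters in a window and is not evidence of binding.

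The CIP/KIP inhibitors differed in spread, with a span of 2.76 log2 units for CDKN1B and 7.64 for CDKN1C. CDKN1B (ENSG00000111276.10, chromosome 12), which binds cyclin E with CDK2 and is marked for destruction by SKP2, was present in every line. SK-N-FI led with 164.5 CPM, before LS (136.5), IMR32 (135.9), SK-N-DZ (104.1), SK-N-AS (81.4), CLB-GA (77.0) and SK-N-BE(2)C (62.9). NBL-S had 52.1 CPM, GI-ME-N 47.6, SH-SY5Y 46.0, Lan-6 40.5, IMR5-75 32.7, SK-N-SH 29.9 and NGP 24.2.

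CDKN1C (ENSG00000129757.13, chromosome 11, 2883213 to 2885773, minus strand), an imprinted gene expressed mainly from the maternal copy, split the lines much more. CLB-GA had 41.4 CPM, IMR32 29.5, SH-SY5Y 24.4, LS 14.1, IMR5-75 13.8 and Lan-6 7.39 CPM, the last of which came to 2.79 CPM with the trend removed. Another 6 lines lay between 1.09 CPM (GI-ME-N) and 2.22 CPM (SK-N-DZ). SK-N-BE(2)C had 9 counts (0.205 CPM) and NGP 6 counts (0.161 CPM), with overlapping intervals. CDKN2C and CDKN1C had r = 0.69 and rho = 0.497 over the 12 lines (no test), with NGP low and CLB-GA and IMR32 high in both. GI-ME-N and SK-N-FI, with 142.0 and 108.0 CPM of CDKN2C, had only 1.09 and 1.43 CPM of CDKN1C. CDKN1A, the remaining CIP/KIP gene, was lowest in LS (8.91 CPM) and highest in SK-N-SH (981.3 CPM).

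RB1 (ENSG00000139687.15, chromosome 13, 48303726 to 48599436, plus strand), the pocket protein on which these kinases act, was at 276.2 CPM in SK-N-FI, 2.57 times the next line, NBL-S at 107.6 CPM. CLB-GA had 99.3 CPM, SK-N-SH 88.5, SK-N-BE(2)C 87.8, IMR32 85.0, LS 79.5, SH-SY5Y 74.1, GI-ME-N 67.9, SK-N-DZ 63.4 and IMR5-75 59.7. The low end was SK-N-AS at 48.7, NGP at 44.8 and Lan-6 at 28.7 CPM, and with the trend removed Lan-6 had 63.2 CPM and NGP was lowest at 41.8. RB1 transcript was counted in 14 of 14 lines. LPAR6 and RCBTB2 lie opposite parts of RB1, and reads of the overlaps may be assigned to either.

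By line, NGP was lowest of the 14 in CDKN2C, CDKN1B and CDKN1C, and with the trend removed also in CDK6 and RB1, so in 5 of 9 genes. NGP was also among the 3 highest in CDKN2A. SK-N-FI was highest in CDKN1B and RB1 and lowest in CCNE1, and CLB-GA was highest in CCND1 and CDKN1C and lowest in CCND3. SK-N-SH and NBL-S had no gene of the 9 at least 2-fold from its median in either direction.

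For CDKN2A, CCND1, RB1, CDK6, CCNE1 and CDKN1C, genes beside the member on the chromosome were read in lines where it was extreme. In Lan-6, which had 2 counts of CDKN2A, the adjacent CDKN2B (an INK4 inhibitor) had 0 counts, and MTAP, a metabolic gene on the other side of CDKN2A, had 2.51 CPM, 18.5 times below the next lowest line and against a median of 64.3 CPM. The farther genes FOCAD, KLHL9 and ELAVL2 lay 2.12, 2.18 and 2.18 log2 units below their medians. With the trend removed these differences were -1.35 for FOCAD, -0.92 for KLHL9, -1.10 for ELAVL2 and -3.47 for MTAP. IMR32, with 10 counts of CDKN2A, had 1 count of CDKN2B but 63.0 CPM of MTAP, at the median level, and CDKN2B was also low in NBL-S and SH-SY5Y, with 9 counts each.

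IMR5-75 had 12.9 CPM of CDKN2B, the highest of the 14 lines, and 5.41 CPM of DMRTA1, which was 0.496 CPM or less elsewhere. In the same line KLHL9 was at 1.97 CPM, 6.19 times below the next lowest line, Lan-6. MTAP, which lies between KLHL9 and CDKN2A, was at 80.7 CPM in IMR5-75.

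The high CCND1 of LS was shared by genes on both sides, and that of CLB-GA was not. LTO1, which overlaps the end of CCND1 by 1399 bases on the opposite strand, was at 274.7 CPM in LS, 4.004 times the next line. IGHMBP2 was at 199.4 CPM (5.03 times the next line), and ANO1, a chloride channel gene, at 124.4 CPM (5.24 times the next line, CLB-GA). Of the 8 listed neighbours, 6 were at least 1 log2 unit above their medians in LS, while PPFIA1 and CTTN, the farthest on one side, were at -0.15 and -0.34. In CLB-GA, with 1995 CPM of CCND1, 2 of the 8 were that high, and in SK-N-AS, lowest in CCND1, the neighbours had a median difference near 0 and LTO1 was at 0.01.

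For RB1, SK-N-FI had higher levels of ITM2B (1.31 log2 units above its median), SUCLA2 (0.80) and MED4 (0.76) as well, each smaller than the 1.85 of RB1. In SK-N-AS, where RB1 was 0.66 below its median, SUCLA2 (-1.24), ITM2B (-1.05) and RCBTB2 (-2.69) were lower still, while LPAR6 was 1.77 above its median at 1.61 CPM (68 counts). LPAR6, whose whole span lies within that of RB1 on the opposite strand, was at 9.72 CPM in LS, 5.91 times the next line, with no such level of RB1 there. ELAVL2 was at 0.878 CPM in SK-N-SH, 7.49 times below Lan-6. Neighbours of CDKN1C had a median difference of -1.0 log2 units in NGP, its lowest line, and 0.45 in CLB-GA, its highest. For CCNE1 the median was -0.05 in SK-N-AS, highest, and -0.003 in SK-N-FI, lowest. For CDK6 it was -0.07 in SK-N-DZ, highest, and -1.14 in Lan-6, lowest (-0.32 with the trend removed). DNA copy number was not measured in these data, so gene dosage and regulation cannot be told apart.

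**Figure D3:**
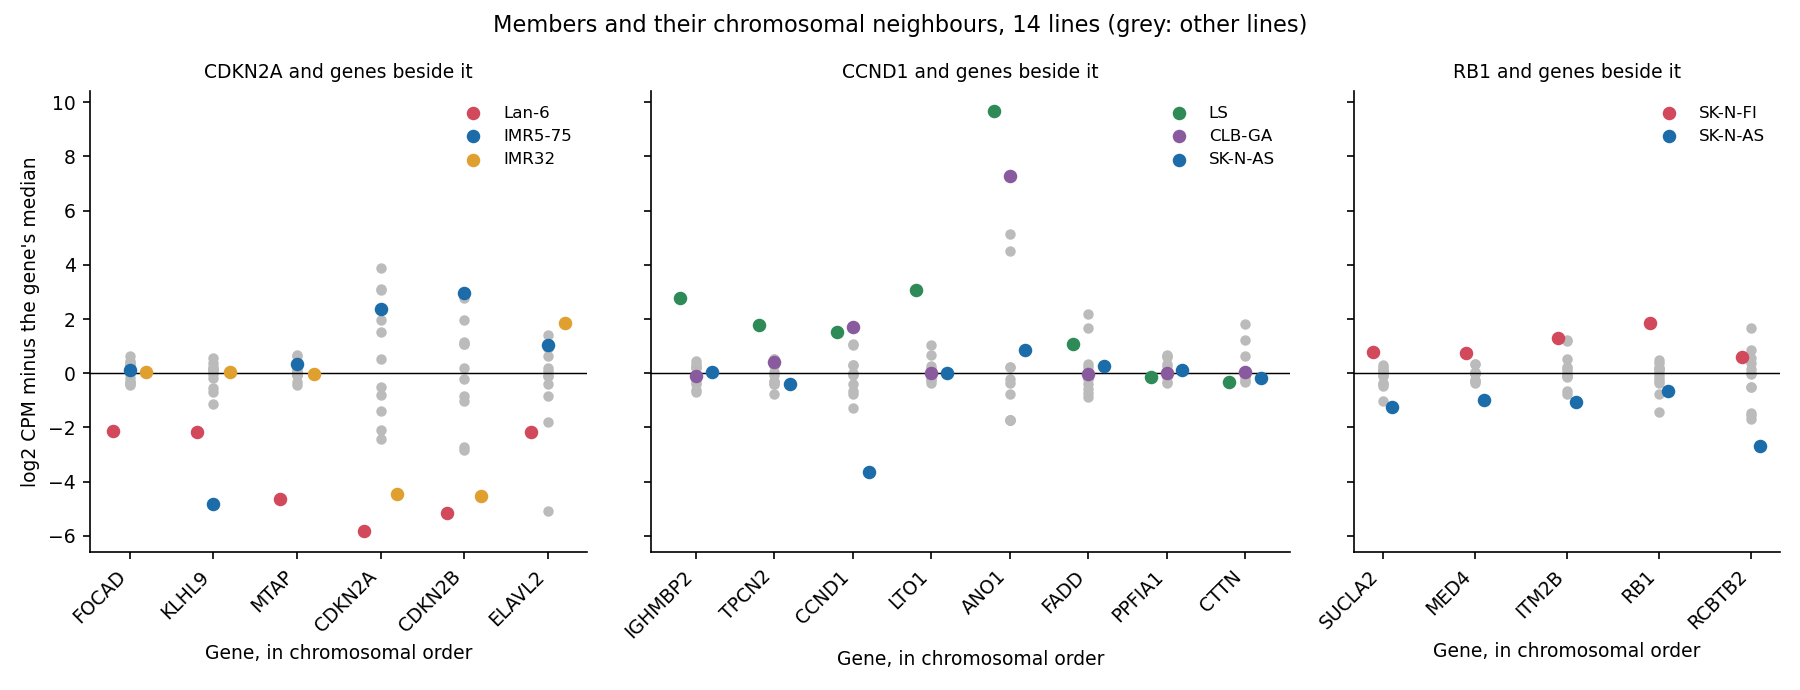
log2 CPM minus the gene's median for CDKN2A, CCND1 and RB1 and the genes beside them, in chromosomal order. Coloured points are the lines named in each legend and grey points the other lines. Lan-6 is low across the CDKN2A panel, LS is high from IGHMBP2 to FADD, and in the RB1 panel, which does not draw LPAR6, SK-N-FI is above and SK-N-AS below the median at each gene drawn.

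Relations between parts of the pathway that textbook biology pairs, and between CDKN2A and its neighbour MTAP, were tested over 12 lines. These are the lines that are not subclones of another line of the series. The 8 relations were tested by 2-sided permutation of Pearson's r and Spearman's rho. The p-values of r were adjusted by Benjamini-Hochberg over the 8, and those of rho were not adjusted. For r, none passed an adjusted p of 0.05. CDKN2A and MTAP had the largest r, 0.614 (permutation p = 0.0241, adjusted p = 0.193), with rho = 0.294 (p = 0.355). That relation rested on Lan-6, without which r was 0.187, whereas without IMR32 alone it was 0.722. Without both, the 2 lines farthest from the CDKN2A median, r was 0.154.

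For CDKN1B and SKP2, whose protein brings CDKN1B to degradation, r was 0.554 (permutation p = 0.0618, adjusted p = 0.247) and rho was 0.699 (p = 0.0138). Without NGP and SK-N-FI r was 0.68. It was 0.454 without SK-N-SH, 0.438 in all 14 lines and 0.389 (rho = 0.503) with the subclones in place of their parents. The sign was positive, and the relation did not pass the adjusted threshold. SKP2 itself was highest for SK-N-AS (299.4 CPM) and ran from 46.3 to 201.7 CPM elsewhere.

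For CDKN2A and RB1, an inhibitor and the end point of its pathway, r was -0.0279 (permutation p = 0.934, adjusted p = 0.934) and rho was -0.203 (p = 0.53). Without Lan-6 and IMR32, the lines with 10 or fewer CDKN2A counts, r was -0.692 (permutation p = 0.0153, adjusted p = 0.122 over the 8 relations). For CDK6 and CDK4 r was -0.388 (permutation p = 0.216, adjusted p = 0.575) and rho was -0.266 (p = 0.403), and -0.328 without SK-N-DZ and CLB-GA.

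For CCND1 with CDK6 r was -0.092 (permutation p = 0.798, adjusted p = 0.934) and rho was 0.266 (p = 0.407), and r was 0.102 without SK-N-AS and CLB-GA. For CDK6 with CDKN2C r was 0.0645 (permutation p = 0.845, adjusted p = 0.934) and rho was 0.014 (p = 0.975), and 0.0504 without SK-N-DZ and CLB-GA. For CCND1 with CCND2 r was -0.181 (permutation p = 0.6, adjusted p = 0.934) and rho was -0.331 (p = 0.291), and 0.128 without SK-N-AS and CLB-GA, with CCND2 near the counting limit throughout. Without LS, the line highest in CCND2, that r was -0.471 (rho = -0.642), and without SK-N-AS it was -0.0669. CCNE1 with an S phase score (the mean centred log2 CPM of 14 replication genes such as MCM2, PCNA and CDC6) gave an r of 0.0338 (permutation p = 0.912, adjusted p = 0.934) and a rho of 0.357 (p = 0.257), and 0.43 with SK-N-FI and SK-N-AS left out.

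Slopes of each gene were then fitted with edgeR's quasi-likelihood test over the same 12 lines on 3 properties of the lines: the level of MYCN, a mesenchymal score of 12 genes (VIM, FN1, PRRX1 and others) and the S phase score. A slope is the log2 change per SD of the property, and p-values were adjusted by Benjamini-Hochberg over all genes tested. Of the 10 members 9 were tested and 0 were called in each scan at an adjusted p of 0.05, and 0 of the 9 had an unadjusted p under 0.05. Among all genes the MYCN scan called 3.61% of 17768, the mesenchymal scan 6.13% of 18201 and the S phase scan 0% of 18199. The MYCN share rests on single lines (0 genes without IMR32 or without NGP, 1516 without SK-N-AS). Among all genes, an unadjusted p under 0.05 was found for 4445 of 17768 in the MYCN scan, 3901 of 18201 (21.4%) in the mesenchymal scan and 1155 of 18199 (6.35%) in the S phase scan. DESeq2 called 283 genes in the S phase scan, none of them a member. DESeq2 called 0 members in the other scans as well.

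On the MYCN level, the steepest falling member was CCNE1, with a slope of -0.37 (SE 0.17, unadjusted p = 0.0553, adjusted p = 0.211), and the next was CCND3 at -0.36 (SE 0.23, adjusted p = 0.348). The CCNE1 slope was -0.12 without SK-N-AS (adjusted p = 0.668), -0.16 without the 2 farthest lines and -0.14 with the GC and length trend removed. The steepest rising was CDKN1C at 0.59 (SE 0.87, adjusted p = 0.695). CDKN2C, whose window holds the E-box printed above, had -0.06 (SE 0.33, adjusted p = 0.927), and CDK6 0.15 (SE 0.23, adjusted p = 0.705). CCND1 had 0.28 (SE 0.37), CDKN1B 0.34 (SE 0.25), CDKN2A 0.35 (SE 0.60) and RB1 0.07 (SE 0.28). The median slope of the 9 was 0.154, against -0.01 for all genes.

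On the mesenchymal score, on which GI-ME-N and SK-N-SH lay far above the other lines, CCND3 had the lowest p with a slope of 0.36 (SE 0.21, adjusted p = 0.350). CDKN1C fell most at -1.02 (SE 0.72, adjusted p = 0.442), and CDKN2A had 0.55 with an SE of 1.21, which came to 5.77e-05 without LS and 1.28 without GI-ME-N. The others lay between -0.34 for CDKN1B and 0.03 for CCNE1. The S phase score gave CDKN2A -1.17 (SE 0.84, adjusted p = 0.911), CDKN1C 0.997 (SE 0.95, adjusted p = 0.944) and CDKN2C 0.47 (SE 0.31, adjusted p = 0.896), and slopes between -0.05 (CCNE1) and 0.23 (CCND3) for the other 6. Where an SE is near 1 log2 unit, as for CDKN2A and CDKN1C, the fit could not resolve changes of several fold.

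**Figure D4:**
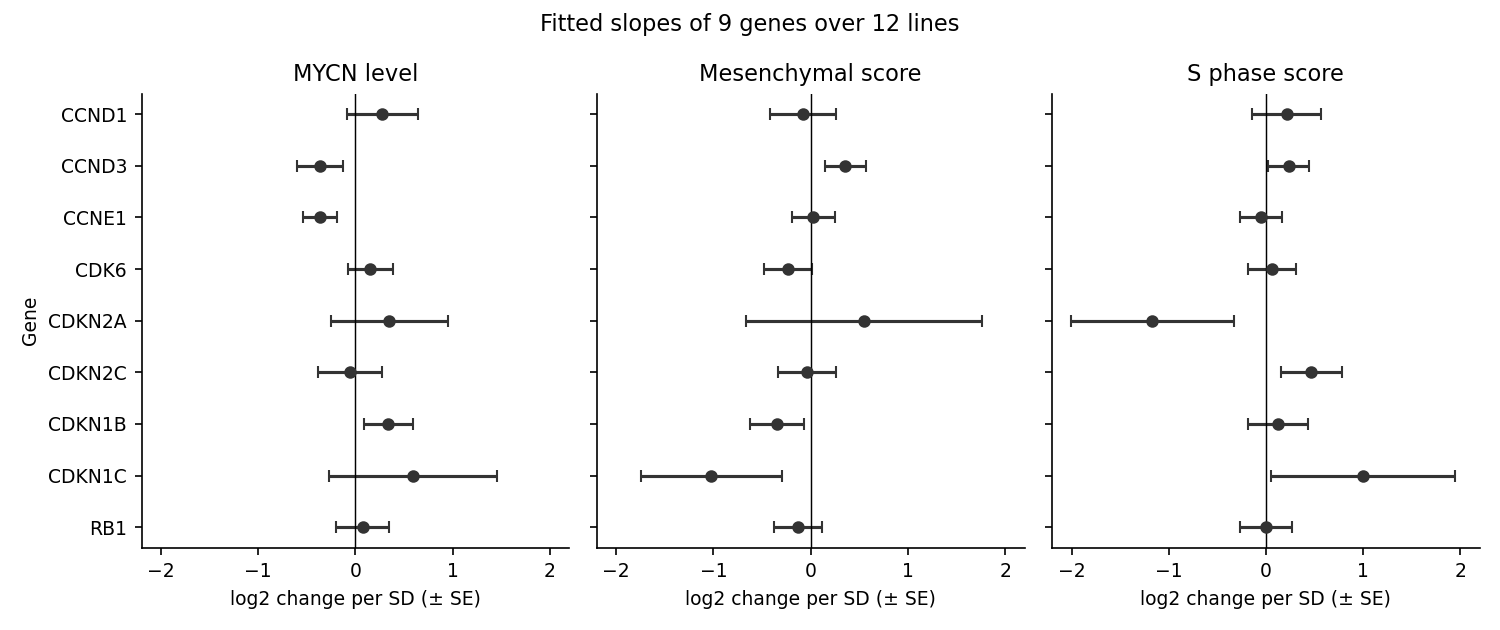
Fitted slope of 9 genes, in log2 units per SD, on the MYCN level, the mesenchymal score and the S phase score over 12 lines. Points are slopes and bars 1 SE. No slope passed an adjusted p of 0.05, and the SEs of CDKN2A and CDKN1C are the widest.

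Among 35 further genes of the RB pathway, from CDK4 and CDK2 to the E2F, DP and pocket protein families, 35 were tested in each scan. On MYCN 0 rose and 1 fell, CDK7, the kinase that activates other cyclin-dependent kinases (slope -0.66, SE 0.16, adjusted p = 0.0471). On the mesenchymal score 2 rose and 0 fell, CDK7 (0.64, SE 0.14, adjusted p = 0.0190) and its assembly partner MNAT1 (0.72, SE 0.14, adjusted p = 0.00825). On the S phase score 0 rose and 0 fell. The shares, 1 of 35 and 2 of 35, are close to the 3.61% and 6.13% of all genes. The CDK7 call on MYCN was lost in 10 of 12 fits that left out 1 line (each line but Lan-6 and SK-N-AS, adjusted p up to 0.199), the mesenchymal call of CDK7 was lost without GI-ME-N (0.0508) or SK-N-SH (0.286), and that of MNAT1 without GI-ME-N (0.162). The mesenchymal call of CDK7 was also lost with the GC and length trend removed (adjusted p = 0.0899) and with the subclones in place of their parents (adjusted p = 0.254), and both mesenchymal calls were lost with GI-ME-N and SK-N-SH left out together (0.988 for CDK7, 0.921 for MNAT1). The MYCN call of CDK7 was lost with the trend removed too (0.0852). In the same list CABLES1 was at 0.589 CPM in GI-ME-N, 12.4 times below the next lowest line.

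The subclones differed from their parent lines in several members, in opposite directions for CDKN2A. A difference of at least 1 log2 unit was found in 6 of 9 members for IMR5-75 against IMR32 and in 3 of 9 for SH-SY5Y against SK-N-SH. Among all 15376 genes averaging 1 CPM or more, the share differing that much was 30.6% between IMR5-75 and IMR32 and 35.9% between SH-SY5Y and SK-N-SH. With 1 library per line these are differences of 2 libraries and no test was made.

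CDKN2A was at 33.9 CPM in IMR5-75 and 0.25 CPM in IMR32 (1530 against 10 counts), a difference of 6.84 log2 units. CDKN2C ran the other way, at 10.0 CPM in IMR5-75 and 232.4 CPM in IMR32 (-4.53). IMR5-75 was also lower in CCND1 (252.7 against 1272 CPM in IMR32, -2.33), CDKN1B (32.7 against 135.9 CPM, -2.05), CCND3 (15.0 against 39.7 CPM, -1.40) and CDKN1C (13.8 against 29.5 CPM, -1.10). CDK6 was the same in the pair, at 384.7 and 382.1 CPM, and CCNE1 (-0.22) and RB1 (-0.51) differed little. Over the 2000 most variable genes the line most like IMR5-75 was IMR32 (r = 0.32).

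CDKN1C was at 24.4 CPM in SH-SY5Y and 2.17 CPM in SK-N-SH, a difference of 3.47 log2 units. CDKN2A was at 1.17 CPM in SH-SY5Y and 9.22 CPM in SK-N-SH (-2.93). CCND1 was at 362.3 CPM in SH-SY5Y and 759.4 CPM in SK-N-SH (-1.07), which is -0.68 when libraries are scaled by their totals alone, a change of scale that moves every gene of this pair by 0.38. On that scale CCNE1 (1.07) and CDKN1B (1.005) were past 1 log2 unit instead. CCND3 (-0.71), RB1 (-0.26), CDKN2C (-0.04), CDK6 (0.53), CDKN1B (0.62) and CCNE1 (0.69) were within it. SK-N-SH was rank 11 of the 13 other lines in likeness to SH-SY5Y (r = -0.21), and mesenchymal markers summed to 175.0 CPM in SH-SY5Y against 12410 CPM in SK-N-SH, whose part in these differences was not tested.

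**Figure D5:**
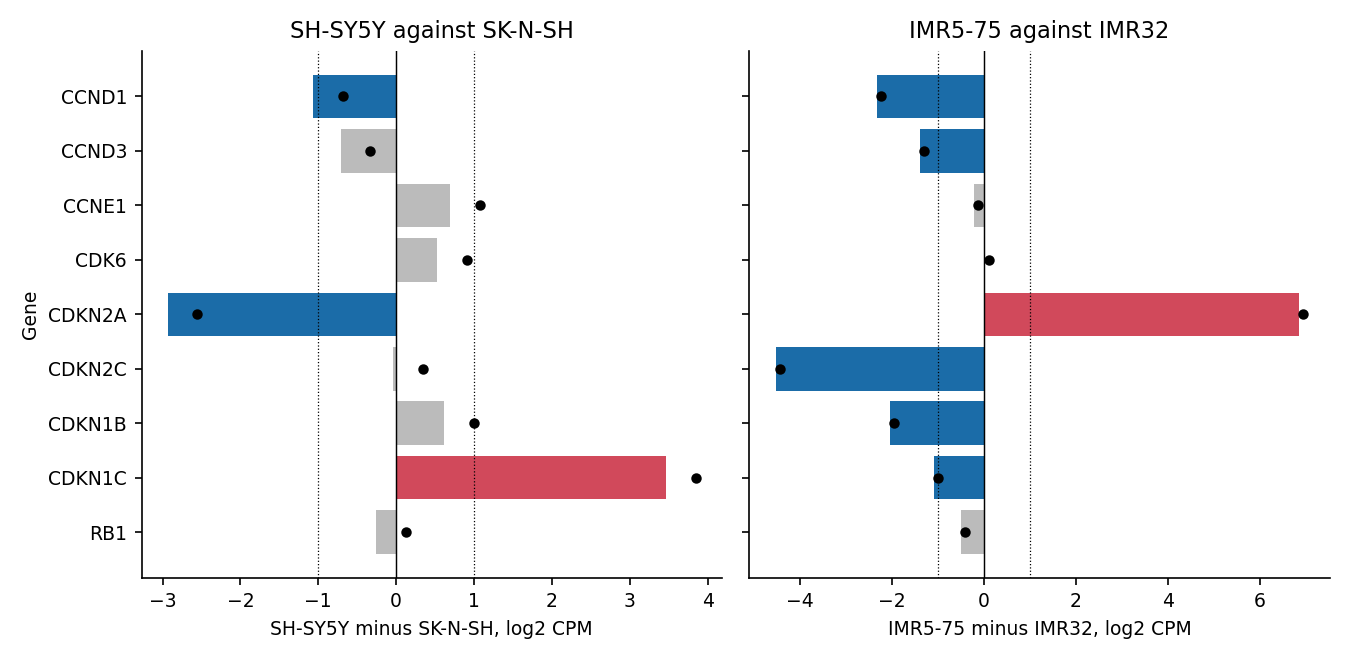
Difference in log2 CPM of 9 genes, SH-SY5Y minus SK-N-SH (left) and IMR5-75 minus IMR32 (right), 1 library each. Bars use TMM factors (grey where under 1 log2 unit) and black dots library totals alone, and dotted lines mark 1 log2 unit. CDKN2A is lower in SH-SY5Y and higher in IMR5-75 than in the parent.

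For each member that spanned at least 2 log2 units, the 3 genes of most like pattern over the 12 lines were taken from 12543 genes averaging 5 CPM or more, as a description. The highest of 12543 r values over 12 lines can be large by selection alone. No test was made, so the genes named are not shown to vary together with the member. CDKN2A was most like KDM6A (r = 0.90), MYCL (0.90) and ATXN1L (0.89), each lowest in Lan-6. MYCL ran from 0.034 CPM in Lan-6 to 21.6 CPM in SK-N-AS. CDKN2C was most like CISD2 (0.92), TPM3P9 (0.90) and PSEN2 (0.87), each lowest in NGP, and PSEN2 (0.83) was also among the 3 for CDKN1C, with FBXO43 (0.83) and ZNF271P (0.83).

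RB1 was most like FNDC3A (r = 0.91), which was highest in SK-N-FI at 372.0 CPM and lowest in Lan-6 at 39.7 CPM, then LEO1 (0.91) and USP12 (0.89). CCND1 was most like FHOD3 (0.87), TMEM150C (0.87) and ZNF426 (0.87), each lowest in SK-N-AS, and FHOD3 was at 194.4 CPM in CLB-GA against 0.142 CPM in SK-N-AS. By rank the likeness to CCND1 was weaker, with rho of 0.469 for FHOD3, 0.552 for TMEM150C and 0.476 for ZNF426. CCNE1 was most like CRABP2 (0.84), LTBR (0.81) and GRIPAP1 (0.80). CRABP2, a retinoic acid carrier, was highest in SK-N-AS at 197.9 CPM and lowest in SK-N-FI at 2.78 CPM, as CCNE1 was.

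CDK6 was most like TRRAP (r = 0.88), ASXL1 (0.88) and PRELID3B (0.84), each lowest in Lan-6. CCND3 was most like AL513523.9 (0.92), CNPY2 (0.91) and ITGB1BP1 (0.91), and CDKN1B like AARS2 (0.89), ARHGAP42 (0.85) and AC013394.1 (0.84). The likeness of CCND2 is not given, since its levels lie near the counting limit. A likeness in which both genes are lowest in Lan-6 can share the length and GC trend of that library, whose part was not tested.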

How the data were processed

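RNA of 14 lines was read by TruSeq libraries, per the labels' protocols. Per the submitters' processing notes, GRCh38, DESeq2 1.48.2 and kallisto 0.44.0 were used, with no step named for any of them, and no source states the strand setting, annotation or filters. The deposited counts per gene are whole numbers and were read as estimated counts that the authors rounded, a unit inferred from the values and not stated by any source. The deposited log2 values, variance-stabilised by the authors per the file's name, served as an alternative scale. No column was without a sample.

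From the counts, TMM factors, CPM and log2 CPM (prior count 2) were computed with edgeR 4.0.16 (R 4.3.3), and slopes were tested by its quasi-likelihood test after filterByExpr, on 12 lines without SH-SY5Y and IMR5-75. Relations used 100000 permutations (scipy 1.17.1). Positions are from GENCODE 29 and start windows from RefSeq (GRCh38.p14). The trend on GC content and length was fitted per library over 10785 genes. None of 91 pairs of libraries held identical counts. P-values measure the spread between single libraries, which may be technical. Alternatives were DESeq2 1.42.0, limma 3.58.1 on the deposited log2 values, other filters, scalings, prior counts and sets of lines. Steps were tested on simulated data.

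Members and lists were chosen with earlier results of these data known. Named genes are the 10 members, genes of the relations, called or outlying genes of the RB pathway list and of the neighbours, and the 3 most alike genes per member. Other genes and the pairs with no test were named after their values were seen. Some genes of the marker and neighbour lists are not reported here and were left out of the sums.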

Additional observations from a re-analysis of the deposited data

How the results depend on the processing

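In the scans, 0 members were called under every one of 21 alternatives per scan. The fits with at least 1 CPM required in every line tested 7 members, and the other alternatives 9 or, with CCND2, 10. For r, no relation passed an adjusted p of 0.05 under any alternative, and CDK6 with CDK4, CDKN1B with SKP2 and CDKN2A with MTAP kept their sign. Without the 2 farthest lines r became 0.128 for CCND1 with CCND2 and 0.102 for CCND1 with CDK6. For CDK6 with CDKN2C r was -0.00409 in all 14 lines and -0.061 with the subclones in place of their parents, and for CCNE1 with the S phase score it was -0.0784 with the GC and length trend removed. The slope of CDKN1C on MYCN was -0.388 with the subclones in place of their parents and -0.0724 without the 2 farthest lines. The deposited log2 values gave spans of 0.942 for CCND2, 6.277 for CDKN2A and 5.131 for CDKN1C, and an IMR5-75 minus IMR32 difference of 4.632 for CDKN2A. Leaving out 1 line at a time gave slopes of CDKN1C from -0.0163 to 0.934 on MYCN and from -0.103 to 1.23 on the S phase score, of CCNE1 from -0.431 to -0.116 on MYCN, and of CDKN2A from 5.77e-05 to 1.28 on the mesenchymal score. It gave r from -0.541 to 0.184 for CDKN2A with RB1, from -0.471 to -0.0669 for CCND1 with CCND2, from 0.187 to 0.722 for CDKN2A with MTAP, from -0.273 to 0.314 for CCND1 with CDK6, from -0.161 to 0.173 for CDK6 with CDKN2C and from -0.0137 to 0.36 for CCNE1 with the S phase score. Of the 35 RB pathway genes, the mesenchymal scan called 6 with DESeq2, 5 with limma on the deposited log2 values, 1 with the subclones in place of their parents, 0 without the 2 farthest lines and 0 to 4 when 1 line was left out, against 2 as reported. The MYCN scan called 1 as reported, 0 with limma, with the subclones in place of their parents or with the trend removed, and 0 to 1 when 1 line was left out, and the S phase scan called 1 with DESeq2 against 0. These list results were added after seeing the data. Among all genes the MYCN scan called 641, but 0 without IMR32, NGP or with the subclones in place of their parents, 8 without GI-ME-N, 14 without SK-N-SH, 25 without SK-N-DZ, 72 without NBL-S, 238 without SK-N-BE(2)C, 335 without LS, 361 without SK-N-FI, 1516 without SK-N-AS and 3173 with DESeq2. The mesenchymal scan called 1116, but 439 without GI-ME-N, 559 without SK-N-SH, 0 with both left out, 1879 without Lan-6 and 3031 with DESeq2. The cause was not tested. No paired analysis was possible because each line has 1 library and no replicate numbers are shared. Counting error limits CCND2, CDKN2A in Lan-6 and IMR32, and CDKN1C in NGP and SK-N-BE(2)C, and the single library per line limits every comparison.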
